A study of Homo sapiens with 12 samples.

Results

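The genes described here encode the splicing machinery of the cell: proteins of the small nuclear ribonucleoproteins (snRNPs), SF3 and U2AF factors, PRPF proteins, SR and SR-related proteins, hnRNPs, the DDX39 helicases and the CLK kinases. They were chosen by gene symbol alone, from symbols that begin with SRSF, SRRM, HNRNP, SF3A, SF3B, SNRP, PRPF, LSM, U2AF or DDX39, together with SON, SF1, TRA2A, TRA2B, LUC7L, LUC7L3, CLK1, CLK2 and CLK4. The name rule matched 112 symbols, and 6 pseudogenes were left out, which gave 106 genes of the 27827 symbols in the count tables. Of these, 104 were protein-coding, and SRRM2-AS1 and HNRNPUL2-BSCL2 were noncoding genes caught by their names.

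RNA sequencing was done on 12 libraries of U937, a human pro-monocytic leukaemia line, in 4 groups of 3. Cells of every group were labelled as pretreated with 50 ng/mL interferon gamma, the step that the design text gives as a means to raise LILRB3, an inhibitory receptor of myeloid cells. For 72 h they were then kept with an antibody against LILRB3, either an antagonist or an agonist, or with nonspecific IgG, at a concentration written in the labels as 5 mg/mL. The antagonist and its IgG group formed set 1, and the agonist and its own IgG group formed set 2. As a model, the study used a single cell line, and nothing says that the 3 libraries of a group came from separate cultures, so the p-values below reflect the spread among libraries, which may be technical.

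Splicing removes introns from pre-mRNA in the spliceosome, which is assembled anew on each intron from the U1, U2, U4, U5 and U6 snRNPs. Each snRNP is a small RNA wrapped by a ring of short Sm proteins (encoded by SNRPB, SNRPD1, SNRPD2, SNRPD3, SNRPE, SNRPF and SNRPG) or, on U6, of LSM proteins, with further proteins particular to each particle. SR proteins bind exons and recruit these particles through domains rich in arginine and serine, hnRNPs coat pre-mRNA and often act against them at splice sites, and CLK kinases phosphorylate SR proteins. SRRM1, SRRM2 and SON are long SR-related proteins with extended disordered stretches, and SRRM2 and SON form the core of nuclear speckles, where splicing factors are stored.

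Total counts lay between 17035334 and 17771980 per antagonist library and between 17142362 and 18820312 per IgG library of set 1. IgG library 1 of set 1 stood apart from its group, with a chi-square per degree of freedom of 11.0 and 19.9 against the other IgG libraries, which differed from each other by 4.54. Of 14 myeloid markers, 11 exceeded 5 CPM, whereas CD14, MPO and CSF1R were near 0, and T and NK cell markers summed to at most 0.844 CPM in any library. The share of counts on ribosomal protein genes was 5.29% to 5.55% in antagonist libraries and 6.46% to 7.63% in IgG libraries, and that on mitochondrial genes was 3.51% to 3.85% and 4.49% to 4.75%. The table of set 2 held 904 genes only, 5 of them splicing factor genes, and agonist library 1 stood apart from its group there (chi-square per degree of freedom 25.1 and 26.7, against 3.75 between the other agonist libraries).

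With the antagonist antibody, most genes of the small snRNP proteins were lower than with IgG, whereas the genes of SRRM2, SRRM1 and several SR proteins were higher. The SR genes (SRSF and TRA2) were split, with 4 of 13 tested genes higher (30.8%) and 3 lower (23.1%). All 7 genes of the Sm ring fell, by log2 fold changes between -0.53 for SNRPF and -0.32 for SNRPE, although SNRPE turned to 0.025 once count trends with coding length and GC content were removed. SRRM2, the largest of the SR-related genes, rose by 0.74 on the log2 scale, which is 1.67-fold. Its log2 fold change was 0.43 once count trends with transcript length and GC content were removed. Of the 106 genes, 95 had enough counts to be tested, and 50 of them (52.6%) passed an adjusted p of 0.05 in edgeR's quasi-likelihood test, 14 higher (14.7%) and 36 lower (37.9%). Across all 13778 tested genes 36.1% passed, 15.6% higher and 20.5% lower, so the share of splicing factor genes that rose was near the background and the share that fell was above it. The median log2 fold change was -0.09 over the 95 genes and -0.01 over all tested genes. In bulk libraries, fewer cells of a type and less RNA per cell cannot be told apart, and CPM, the counts scaled by library totals that TMM factors adjust, show relative levels rather than amounts per cell.

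Promoters are shown for SNRPF, SNRPD2, SRRM2 and SRRM1, the called genes with the largest changes in each of the small snRNP and large SR classes, taken from those with a promoter window at the gene's own start. The windows below come from RefSeq (GRCh38.p14) and run 5′ to 3′ from 250 bases before the annotated start to 50 bases after it. Capitals mark matches, on either strand, to CCAAT (the NF-Y box, ATTGG on the other strand) or CCGGAA (a core of ETS factor sites, TTCCGG on the other strand); TATAAA (the TATA box) was searched as well. The window of SNRPF is chr12:95858702-95859001 on the plus strand, that of SNRPD2 is chr19:45692267-45692566 on the minus strand, that of SRRM2 is chr16:2752388-2752687 on the plus strand and that of SRRM1 is chr1:24643052-24643351 on the plus strand.
SNRPF: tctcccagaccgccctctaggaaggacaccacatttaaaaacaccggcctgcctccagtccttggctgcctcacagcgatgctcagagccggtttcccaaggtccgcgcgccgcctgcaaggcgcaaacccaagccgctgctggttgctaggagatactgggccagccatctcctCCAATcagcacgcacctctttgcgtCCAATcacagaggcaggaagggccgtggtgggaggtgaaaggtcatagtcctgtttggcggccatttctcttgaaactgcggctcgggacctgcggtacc
SNRPD2: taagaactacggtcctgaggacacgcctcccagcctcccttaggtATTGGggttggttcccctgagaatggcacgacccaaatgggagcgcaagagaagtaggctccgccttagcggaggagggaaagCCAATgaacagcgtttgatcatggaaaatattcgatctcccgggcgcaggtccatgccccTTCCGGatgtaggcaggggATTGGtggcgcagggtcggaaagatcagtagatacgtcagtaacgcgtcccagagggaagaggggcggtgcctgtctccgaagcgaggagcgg
SRRM2: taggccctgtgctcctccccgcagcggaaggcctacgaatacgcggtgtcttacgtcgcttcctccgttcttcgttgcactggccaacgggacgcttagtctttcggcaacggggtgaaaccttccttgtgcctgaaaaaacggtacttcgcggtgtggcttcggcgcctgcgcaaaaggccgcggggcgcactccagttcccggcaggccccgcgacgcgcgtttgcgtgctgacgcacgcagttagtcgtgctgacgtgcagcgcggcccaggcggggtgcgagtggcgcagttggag
SRRM1: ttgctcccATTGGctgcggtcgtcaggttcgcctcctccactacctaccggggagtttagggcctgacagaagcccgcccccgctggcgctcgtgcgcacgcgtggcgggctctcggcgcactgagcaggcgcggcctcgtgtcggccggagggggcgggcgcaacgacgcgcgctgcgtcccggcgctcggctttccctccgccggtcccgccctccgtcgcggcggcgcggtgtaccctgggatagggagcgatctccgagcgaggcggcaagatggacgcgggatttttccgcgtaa

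SNRPF held 2 CCAAT matches, SNRPD2 held 3 CCAAT matches and 1 CCGGAA match, SRRM1 held 1 CCAAT match near the upstream end, and the SRRM2 window held no match to any motif searched. Of the 20 tested small snRNP genes 15 had a window, and 8 of these (53.3%) held CCGGAA: LSM3, LSM5, LSM8, SNRPA1, SNRPB, SNRPB2, SNRPC and SNRPD2. Of the 6 large SR genes only SRSF4 held it (16.7%), 25 of the 76 windows of tested splicing factor genes did (32.9%), and 17.6% of all 24885 windows did. CCAAT was found in 7 of the 15 small snRNP windows (46.7%), in 3 of the 6 large SR windows (50.0%; LUC7L3, SON and SRRM1) and in 36.1% of all windows. TATAAA was found in the SNRPC window and in no large SR window, and in 12.3% of all windows. LSM8 and SNRPA1, both with CCGGAA, did not pass the test with the antagonist, and SNRPF, with the largest fall, had no CCGGAA match. These matches describe the letters of the windows only, and binding was not measured.

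Each of the 7 Sm ring genes had a lower mean in antagonist libraries. SNRPF, at chr12:95858952-95866140 (GRCh38.p14), had 48.8, 44.8 and 46.2 CPM in antagonist libraries, against 78.7, 62.5 and 61.0 CPM in IgG libraries. All 3 antagonist libraries were below all 3 IgG libraries, and IgG library 1 was the highest. The log2 fold change was -0.53 ± 0.09 (SE, adjusted p = 0.00114). SNRPG had 19.4, 20.5 and 16.6 CPM in antagonist libraries, against 30.3, 26.9 and 22.8 CPM in IgG libraries, again without overlap, a log2 fold change of -0.51 ± 0.11 (SE, adjusted p = 0.00448) and a value of -0.17 that did not pass once count trends with coding length and GC content were removed.

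SNRPD1 had 37.9, 44.5 and 42.7 CPM in antagonist libraries, against 66.6, 51.4 and 51.5 CPM in IgG libraries, and SNRPD2 had 188, 203 and 202 CPM in antagonist libraries, against 293, 243 and 253 CPM in IgG libraries. In both genes the groups did not overlap and IgG library 1 was the highest library. Their log2 fold changes were -0.44 ± 0.10 (SE, adjusted p = 0.00646) and -0.41 ± 0.07 (SE, adjusted p = 0.00133), and SNRPD1 did not pass with those trends removed (-0.13). SNRPB, whose product also occurs as a longer spliced form, had 473, 439 and 485 CPM in antagonist libraries, against 591, 603 and 607 CPM in IgG libraries, and here the 3 IgG libraries were close together. Its log2 fold change was -0.37 ± 0.06 (SE, adjusted p = 0.000755), a fall of 22.4%. SNRPD3 changed by -0.33 ± 0.07 (SE, adjusted p = 0.00245) without overlap of the groups. SNRPE was the weakest case, with 16.9, 20.3 and 14.7 CPM in antagonist libraries, against 23.6, 21.1 and 20.1 CPM in IgG libraries. Antagonist library 2 overlapped the IgG libraries there, and the log2 fold change of -0.32 ± 0.12 (SE, adjusted p = 0.0486) was not past 0.05 in most alternative settings. Its adjusted p was 0.208 without antagonist library 3, and 0.958 once count trends with transcript length and GC content were removed (-0.0069). SNRPN, the neuronal relative of SNRPB, had no count in any library of set 1.

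LSM proteins have the same fold as Sm proteins, and LSM2 to LSM8 form the ring on U6 RNA while LSM1 replaces LSM8 in the cytoplasmic ring that takes part in mRNA decay. Of LSM1 to LSM8, 5 of 8 fell (62.5%) and none rose, where 20.5% of all tested genes fell and 15.6% rose. The median of LSM1 to LSM8 was -0.33 on the log2 scale. LSM7 had 129.6, 132 and 141 CPM in antagonist libraries, against 193, 177 and 162 CPM in IgG libraries, LSM3 had 59.3, 63.2 and 58.1 CPM in antagonist libraries, against 85.7, 72.6 and 71.3 CPM in IgG libraries and LSM4 had 129, 126 and 129 CPM in antagonist libraries, against 169.7, 160.1 and 147 CPM in IgG libraries, each without overlap. Their log2 fold changes were -0.40 ± 0.07 (SE, adjusted p = 0.00121), -0.35 ± 0.08 (SE, adjusted p = 0.00456) and -0.31 ± 0.06 (SE, adjusted p = 0.00262), and LSM3 lost the call with coding length and GC trends removed (-0.09).

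LSM5 had 34.7, 41.6 and 34.3 CPM in antagonist libraries, against 54.3, 46.4 and 40.9 CPM in IgG libraries, and antagonist library 2 lay above IgG library 3, so that the groups overlapped. Its log2 fold change of -0.36 ± 0.11 (SE, adjusted p = 0.0212) lost the call in 6 alternatives, among them those without IgG library 1 or 2 or antagonist library 1 or 3, and turned to 0.016 with coding length and GC trends removed. LSM1 changed by -0.35 ± 0.12 (SE, adjusted p = 0.033) with overlapping groups and lost the call without IgG library 1 or antagonist library 1 or 3, and with those trends removed (-0.13, adjusted p = 0.282). LSM6, LSM2 and LSM8 did not pass, at -0.24, -0.27 and -0.04. LSM8, the member that sets the nuclear ring apart from the cytoplasmic one, had 41.0, 47.1 and 44.8 CPM in antagonist libraries, against 52.6, 42.7 and 41.2 CPM in IgG libraries, with overlapping libraries. Outside the U6 ring, LSM10, which with LSM11 belongs to the U7 snRNP that processes histone mRNA, changed by -0.25 ± 0.07 (SE, adjusted p = 0.0182), a call lost without IgG library 3 or antagonist library 1 or 2 and with those trends removed (-0.13, adjusted p = 0.0982), and LSM11 did not pass at 0.12. LSM14A, a factor of cytoplasmic mRNA granules, changed by -0.29 ± 0.07 (SE, adjusted p = 0.00594), and its relative LSM14B had 0.12 without passing, but passed as higher without IgG library 1 (0.16, adjusted p = 0.0301).

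Proteins that belong to single snRNPs were split. SNRPB2, a U2 protein, had 111, 110.1 and 106 CPM in antagonist libraries, against 156, 137 and 136 CPM in IgG libraries, and SNRPC, a U1 protein that helps to recognise the 5′ splice site, had 57.8, 69.2 and 63.3 CPM in antagonist libraries, against 85.3, 78.0 and 84.4 CPM in IgG libraries. Neither overlapped between groups, and their log2 fold changes were -0.39 ± 0.07 (SE, adjusted p = 0.000979) and -0.38 ± 0.07 (SE, adjusted p = 0.00204). SNRPA, another U1 protein, and SNRPA1, the U2 partner of SNRPB2, did not pass. SNRPA had 151, 149 and 157 CPM in antagonist libraries, against 145, 157 and 154 CPM in IgG libraries, with the groups on top of each other and a log2 fold change of 0.00. SNRPA1 had 30.8, 30.6 and 30.0 CPM in antagonist libraries, against 30.2, 28.2 and 25.5 CPM in IgG libraries, at 0.12, and without IgG library 1 it passed as higher (0.21).

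Taking SNRP genes with LSM1 to LSM8 and LSM10 as the small snRNP proteins, 15 of 20 tested genes fell (75%) and 0 rose, where 20.5% of all tested genes fell and 15.6% rose; by DESeq2's Wald test 14 fell and 0 rose, and 0 rose at an unadjusted p under 0.05 in edgeR. The median log2 fold change of the class was -0.35. Without IgG library 1, which was the highest of its group in many of these genes, 12 fell and 1 (SNRPA1) rose, and the median was -0.24. In that setting 18% of all tested genes fell and 17.4% rose. The summed CPM of the class was 1705, 1717 and 1748 in antagonist libraries, against 2291, 2111 and 2091 in IgG libraries. The antagonist libraries lay within a narrow band below the IgG libraries, of which library 1 was the highest. The class averaged 1723 ± 22.2 CPM with the antagonist and 2164 ± 110.4 CPM with IgG (SD, n = 3 each), a ratio of 0.796. Ribosomal protein and mitochondrial shares were lower in the same libraries, in the ranges given above, and their part in this result was not tested. Several Sm and LSM genes have near-identical processed pseudogenes, and how reads were divided between such copies is not given in the sources used here.

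**Figure D1:**
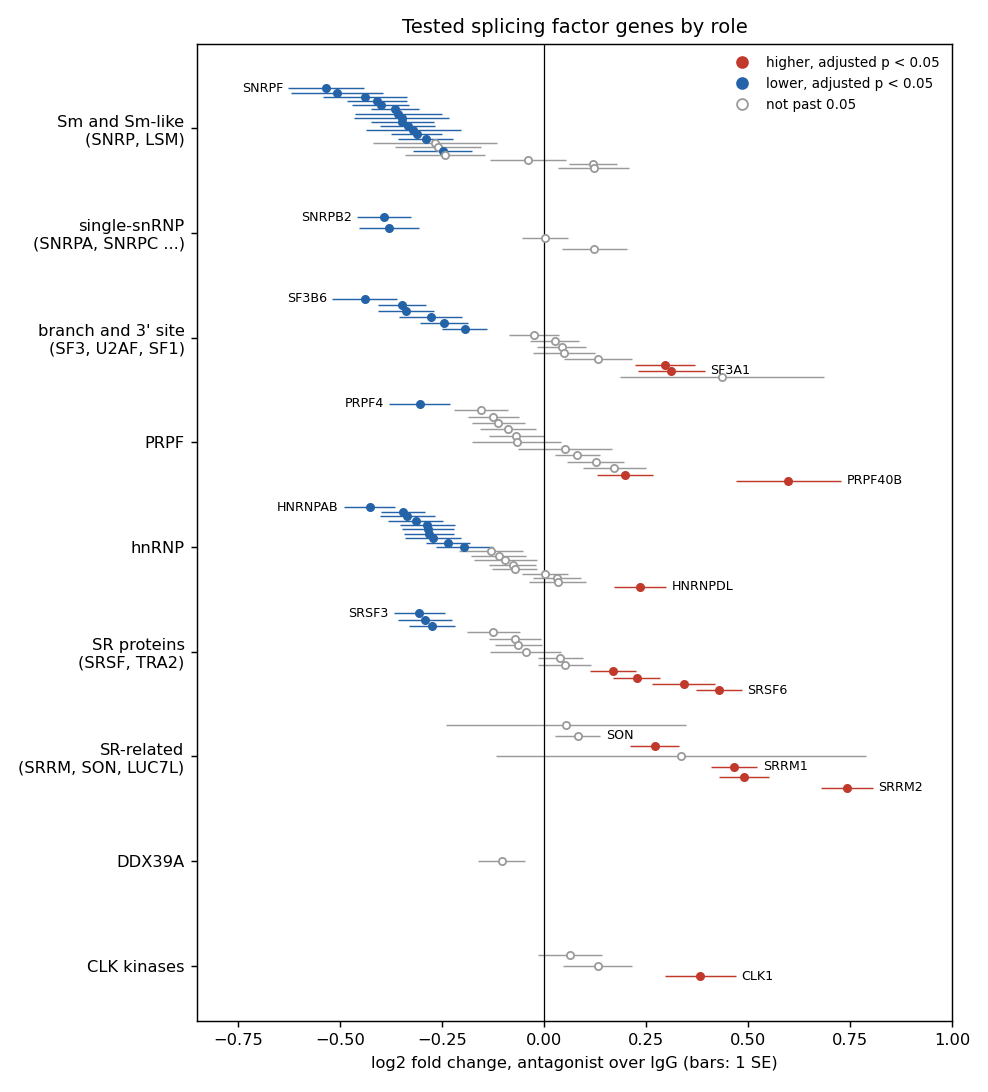
Log2 fold change (antagonist over IgG, edgeR) of each of the 94 tested protein-coding splicing factor genes, 1 point per gene with a bar of 1 SE, grouped by role. Red points are higher and blue points lower at an adjusted p under 0.05, and open points did not pass. Sm and Sm-like genes lie mostly left of 0, with 14 of 20 lower, and SR-related genes lie right of it, up to 0.74 for SRRM2.

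Of 7 tested SR-related genes (SRRM, SON and LUC7L), 4 rose (57.1%) and 0 fell, where 15.6% and 20.5% of all tested genes did. These SR-related genes gave the same counts at an unadjusted p under 0.05 in edgeR. SRRM2, at chr16:2752638-2771412 (GRCh38.p14), is the largest of them, with a coding length of 8256 bases, and had 1333, 1300.1 and 1334 CPM in antagonist libraries, against 722, 827 and 824 CPM in IgG libraries. The 3 antagonist libraries were close together and far above the IgG libraries, of which library 1 was the lowest. The log2 fold change was 0.74 ± 0.06 (SE, adjusted p = 5.54e-05), and 0.43 with transcript length and GC trends removed, where SRRM2 still passed. SRRM2-AS1, an antisense gene annotated next to SRRM2 without overlap, averaged 0.8 CPM in antagonist and 0.454 CPM in IgG libraries (n = 3 each).

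SRRM1, which bridges SR proteins and snRNPs, had 308, 326 and 306 CPM in antagonist libraries, against 224, 227 and 229 CPM in IgG libraries, with no overlap and a log2 fold change of 0.47 ± 0.06 (SE, adjusted p = 0.000213). LUC7L and LUC7L3, relatives of a U1-associated yeast protein that acts at the 5′ splice site, had 77.4, 71.4 and 77.1 CPM in antagonist libraries, against 53.2, 52.9 and 54.7 CPM in IgG libraries for LUC7L and 238, 248 and 233 CPM in antagonist libraries, against 208, 187 and 199.8 CPM in IgG libraries for LUC7L3. Both were higher in every antagonist library than in any IgG library, by 0.49 ± 0.06 (SE, adjusted p = 0.000261) and 0.27 ± 0.06 (SE, adjusted p = 0.00452). SON had 318, 329 and 316 CPM in antagonist libraries, against 295, 306 and 309 CPM in IgG libraries, so that the groups did not overlap, but the log2 fold change of 0.08 ± 0.06 (SE, adjusted p = 0.265) did not pass. Among the other SRRM genes, SRRM3 and SRRM5 did not pass at 0.05 and 0.34, each with overlapping libraries, and SRRM4 was below the filter with 1 count in all antagonist and 1 in all IgG libraries.

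Canonical SR proteins split by member. SRSF6 had 134, 143 and 137 CPM in antagonist libraries, against 104, 102 and 101 CPM in IgG libraries, and SRSF5 had 189, 193 and 181 CPM in antagonist libraries, against 169, 139 and 137 CPM in IgG libraries. Every antagonist library exceeded every IgG library in both, and IgG library 1 was the highest of its group for SRSF5. The log2 fold changes were 0.43 ± 0.06 (SE, adjusted p = 0.000299) and 0.34 ± 0.08 (SE, adjusted p = 0.00512). SRSF11, an SR protein close to U2AF, had 373, 381 and 374 CPM in antagonist libraries, against 339, 311 and 313 CPM in IgG libraries and changed by 0.23 ± 0.06 (SE, adjusted p = 0.00935).

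SRSF1, an SR protein that promotes recognition of the 5′ splice site, had 229, 236 and 233 CPM in antagonist libraries, against 214, 208 and 198 CPM in IgG libraries, without overlap. Its log2 fold change was 0.17 ± 0.06 (SE, adjusted p = 0.0343), and the call was lost in 6 alternatives, among them those that left out any library other than IgG library 1. SRSF3, the smallest of the family with a coding length of 492 bases, had 137, 148 and 143 CPM in antagonist libraries, against 189, 170.3 and 169 CPM in IgG libraries, a log2 fold change of -0.31 ± 0.06 (SE, adjusted p = 0.00296), and lost the call with coding length and GC trends removed (-0.03). SRSF9 had 146, 139.8 and 142 CPM in antagonist libraries, against 179, 174 and 165 CPM in IgG libraries and TRA2B, a sequence-specific activator of exons, had 80.3, 80.4 and 82.0 CPM in antagonist libraries, against 107, 99.1 and 91.3 CPM in IgG libraries. Neither overlapped between groups, and they changed by -0.27 ± 0.06 (SE, adjusted p = 0.0031) and -0.29 ± 0.07 (SE, adjusted p = 0.00493). TRA2A, the close relative of TRA2B, did not pass with 53.3, 54.5 and 53.7 CPM in antagonist libraries, against 52.9, 54.1 and 48.8 CPM in IgG libraries and a log2 fold change of 0.05. The difference between the relatives was not tested. SRSF2, which binds exonic enhancers and is mutated in myeloid neoplasms, did not pass either, with 156, 155 and 160.2 CPM in antagonist libraries, against 158, 148 and 153 CPM in IgG libraries at 0.04. SRSF4, SRSF7, SRSF8 and SRSF10 lay between -0.12 and -0.05 without passing, and SRSF12 was below the filter with 11 summed counts in antagonist and 17 in IgG libraries.

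The large SR proteins were taken as SRRM1, SRRM2, SON, SRSF4, SRSF11 and LUC7L3, with coding lengths of 1452 to 8256 bases. Of the 6 genes, 4 rose (66.7%) and 0 fell, where 15.6% and 20.5% of all tested genes did. SON and SRSF4 were those that did not pass. DESeq2's Wald test gave the same 4 and 0, and 0 fell at an unadjusted p under 0.05 in edgeR. The median log2 fold change was 0.25, and 0.31 without IgG library 1. Their summed CPM was 2850, 2887 and 2849 in antagonist libraries, against 2094, 2153 and 2183 in IgG libraries, a ratio of means of 1.34. Among the other 14 SR and SR-related genes, 4 (28.6%) rose (SRSF1, SRSF5, SRSF6 and LUC7L) and 3 (21.4%) fell (SRSF3, SRSF9 and TRA2B). Their summed CPM was 1472, 1495 and 1479 in antagonist libraries, against 1516, 1429 and 1403 in IgG libraries, with overlapping groups. Over all 20 genes of the name pattern 8 rose (40%) and 3 fell (15%), with a median of 0.07, so the class value depended on which of these genes were taken. The class was set by name, and SRRM3 (1959 bases, log2 fold change 0.05) and SRRM5 (2145 bases, log2 fold change 0.34), which did not pass, are longer than some of its members and outside it.

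The ratio of summed counts of large SR to small snRNP genes within a library does not depend on how libraries were scaled. It was 1.67, 1.68 and 1.63 in antagonist libraries, against 0.914, 1.02 and 1.04 in IgG libraries. All antagonist libraries lay above all IgG libraries, and the group means were 1.66 ± 0.027 with the antagonist and 0.993 ± 0.069 with IgG (SD, n = 3 each), a 1.67-fold difference. Without SRRM2, which held much of the summed reads, the ratio was 0.890, 0.924 and 0.866 in antagonist libraries, against 0.598, 0.628 and 0.650 in IgG libraries, a 1.43-fold difference. Reads were not divided by gene length here, so only the change of this ratio can be read and not its height. Since the classes were set with earlier results of these data known, no p-value is given for it.

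**Figure D2:**
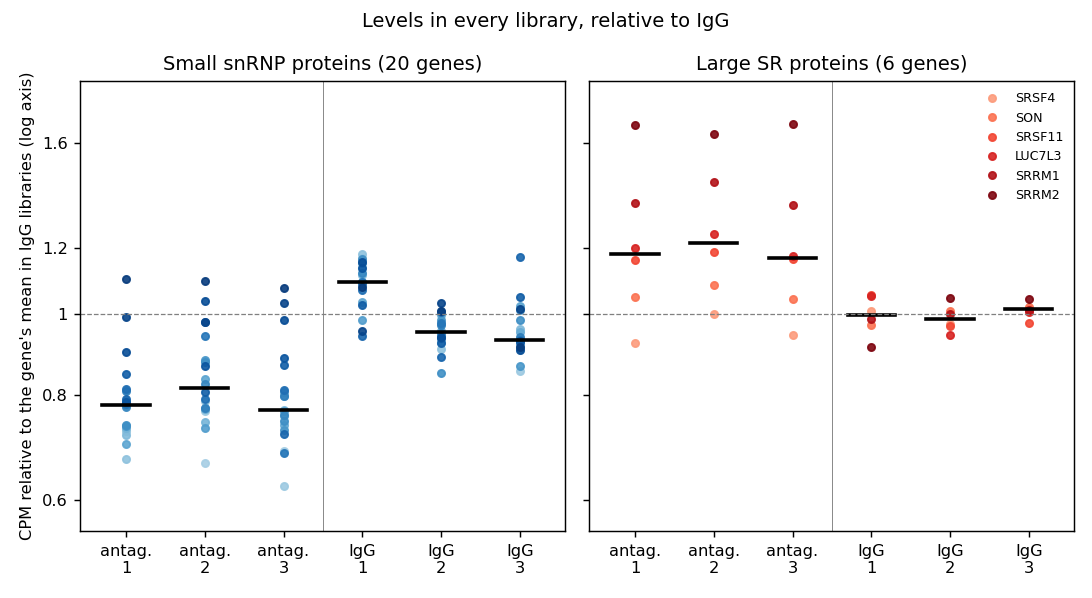
CPM of each gene in each library of set 1, divided by the gene's mean in IgG libraries (log axis), for 20 small snRNP genes on the left and 6 large SR genes on the right, 1 point per gene and library with black bars at the median. In each panel the 3 antagonist libraries stand left of the 3 IgG libraries. The medians of small snRNP genes lie below 1 in every antagonist library, those of large SR genes lie above 1, and IgG library 1 has the highest median of small snRNP genes.

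Coding length divided the tested genes in the same direction. Among the 3023 protein-coding genes with up to 891 coding bases, 43.1% fell and 6.45% rose (median log2 fold change -0.22). Among the 3008 genes over 2244 bases, 6.68% fell and 28.4% rose (median 0.12). All 20 small snRNP genes were in the group of up to 891 bases, and their share of 75% lower stood beside the 43.1% of that group. Of the large SR genes, SRSF11, LUC7L3 and SRSF4 had between 1452 and 1482 bases, and SRRM1, SON and SRRM2 had more than 2244.

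Within the SR genes alone the same order appeared: across the 20 genes, Spearman's rho between coding length and log2 fold change was 0.62, against 0.57 over 94 splicing factor genes and 0.39 over 12111 tested genes with a coding length. Among the 20 small snRNP genes it was 0.03. With transcript length in place of coding length, rho was 0.19 over the 20 SR genes, so their order depended on the length measure. By transcript length, rho was 0.38 over 95 splicing factor genes, 0.25 over 13122 tested genes and 0.23 over the 20 small snRNP genes. These are descriptions across genes of the same 6 libraries, and genes are not independent replicates. Of the 6 splicing factor genes of up to 891 bases outside the small snRNP class and the SR genes, 4 fell (SF3B5, SF3B6, U2AF1 and U2AF1L5). Of all protein-coding genes of that length 43.1% fell, and U2AF1 and U2AF1L5 are near-identical copies that may share reads. After the trends of counts with coding length and GC content were removed from each library, a setting added after the data were seen, the small snRNP genes had a median of -0.13, with 8 of 20 lower (LSM4, LSM7, SNRPB, SNRPB2, SNRPC, SNRPD2, SNRPD3 and SNRPF) and 2 higher (LSM8 and SNRPA1). In that setting 23% of all tested genes were lower and 15.6% higher. The large SR genes had a median of 0.35 there, with SRRM1, SRRM2, SRSF11 and LUC7L3 still higher and SON now lower (-0.16, adjusted p = 0.00108).

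**Figure D3:**
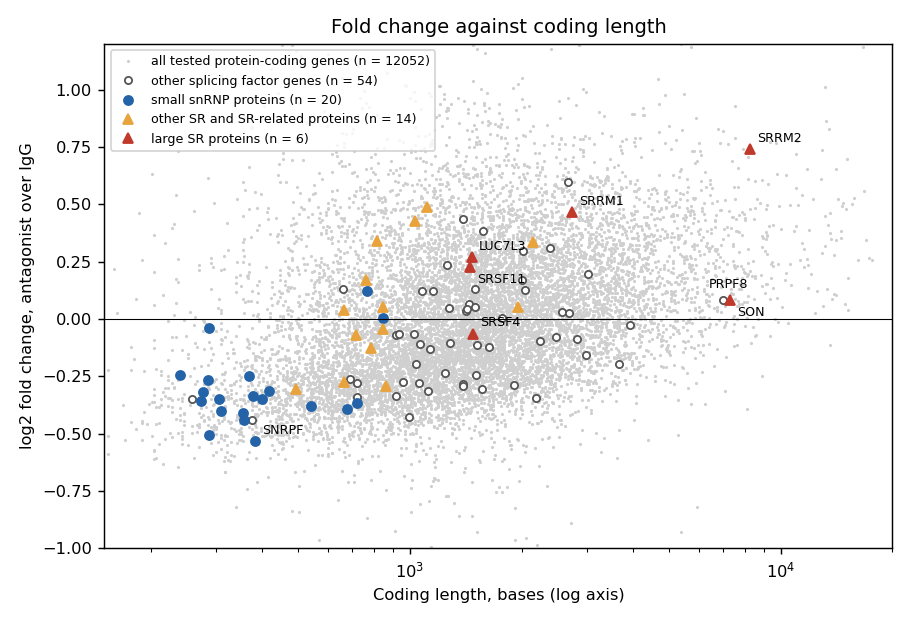
Log2 fold change (antagonist over IgG) against coding length in bases (log axis) for tested protein-coding genes; grey dots are all genes, and coloured or open symbols are splicing factor genes by class. The cloud of all genes rises to the right, the 20 small snRNP genes (blue) sit at its left end and mostly below 0, and SRRM2 sits at its upper right. The axes leave out 51 genes.

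Factors that recognise the branch point and the 3′ splice site were mixed. SF3B6, the small SF3B subunit that touches the branch point, had 85.0, 91.9 and 81.7 CPM in antagonist libraries, against 132, 109 and 109.6 CPM in IgG libraries, and SF3B5, the smallest subunit, had 117, 124 and 128 CPM in antagonist libraries, against 160.2, 151 and 158 CPM in IgG libraries. The groups did not overlap in either, and the log2 fold changes were -0.44 ± 0.08 (SE, adjusted p = 0.00145) and -0.35 ± 0.06 (SE, adjusted p = 0.00103). SF3B1, the large scaffold of the complex and a gene recurrently mutated in myelodysplasia, had 596, 645 and 591 CPM in antagonist libraries, against 652, 602 and 609.6 CPM in IgG libraries and did not pass at -0.02. SF3B2 and SF3B4 did not pass either (0.03 and 0.05), whereas SF3B3 changed by -0.19 ± 0.06 (SE, adjusted p = 0.0164). The SF3B3 call was lost without IgG library 2 or antagonist library 1 or 2, and with library totals in place of TMM.

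U2AF1, which reads the AG of the 3′ splice site, had 57.2, 60.9 and 61.8 CPM in antagonist libraries, against 81.4, 74.8 and 71.1 CPM in IgG libraries and changed by -0.34 ± 0.07 (SE, adjusted p = 0.00259). Its annotated near-identical copy U2AF1L5 had 58.5, 59.2 and 55.0 CPM in antagonist libraries, against 77.7, 67.7 and 63.8 CPM in IgG libraries and changed by -0.28 ± 0.08 (SE, adjusted p = 0.0144), a call lost without antagonist library 1 or 3 and with library totals in place of TMM. Because reads may be shared between the copies, the values of both are uncertain. U2AF2, the partner that reads the polypyrimidine tract, had 271, 263 and 271 CPM in antagonist libraries, against 245, 264 and 274 CPM in IgG libraries and did not pass at 0.04. SF1, the first protein at the branch point, went the other way with 261, 279 and 272 CPM in antagonist libraries, against 201, 214 and 246 CPM in IgG libraries, and SF3A1 with 194, 213 and 199 CPM in antagonist libraries, against 146, 156 and 186 CPM in IgG libraries. IgG library 3 was the highest of its group for both, still below the antagonist libraries, and the log2 fold changes were 0.30 ± 0.07 (SE, adjusted p = 0.0082) and 0.31 ± 0.08 (SE, adjusted p = 0.0111). That of SF3A1 was not past 0.05 without antagonist library 2 or with transcript length and GC trends removed. SF3A2 illustrates the spread of that group, with 297, 313 and 313 CPM in antagonist libraries, against 165, 202 and 315 CPM in IgG libraries, a log2 fold change of 0.44 that did not pass, although without IgG library 3 it passed as higher (0.75, adjusted p = 5.88e-05). SF3A3 changed by -0.25 ± 0.06 (SE, adjusted p = 0.00608), a call lost with library totals in place of TMM (adjusted p = 0.0517). Over the 14 tested genes of SF3A, SF3B, U2AF and SF1, 6 fell (42.9%) and 2 rose (14.3%), where 20.5% and 15.6% of all tested genes did.

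PRPF proteins are mostly parts of the U5 and U4/U6 particles or of the Prp19 complex. Of 13 tested PRPF genes 2 rose (15.4%) and 1 fell (7.69%), where 15.6% and 20.5% of all tested genes did. PRPF40B, a U1-associated factor, had 11.0, 11.4 and 9.64 CPM in antagonist libraries, against 6.88, 6.29 and 7.96 CPM in IgG libraries and changed by 0.60 ± 0.13 (SE, adjusted p = 0.00373). PRPF4B, a kinase of the spliceosome, had 79.6, 83.5 and 78.9 CPM in antagonist libraries, against 73.0, 74.1 and 64.0 CPM in IgG libraries, without overlap. Its log2 fold change of 0.20 ± 0.07 (SE, adjusted p = 0.0402) lost the call without IgG library 3 and without any one of the antagonist libraries. PRPF4, a U4/U6 protein, had 43.0, 44.8 and 38.5 CPM in antagonist libraries, against 49.8, 51.6 and 54.7 CPM in IgG libraries and changed by -0.31 ± 0.07 (SE, adjusted p = 0.00758), with an adjusted p of 0.0509 without antagonist library 3. PRPF8, the large protein at the centre of the spliceosome, had 532, 518 and 533 CPM in antagonist libraries, against 482, 497 and 517 CPM in IgG libraries, with a narrow gap between the groups, at 0.08 ± 0.06 (SE, adjusted p = 0.274), and was lower than with IgG once the trends with coding length and GC content were removed (-0.22, adjusted p = 6.29e-05).

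Among hnRNPs, 10 of 19 tested genes fell (52.6%) and 1 rose (5.26%), where 20.5% and 15.6% of all tested genes did. The hnRNP median was -0.20 on the log2 scale, and the median of all genes was -0.01. HNRNPAB had 138, 132 and 134 CPM in antagonist libraries, against 195, 179 and 170.0 CPM in IgG libraries, HNRNPM had 157, 161 and 162 CPM in antagonist libraries, against 207, 202 and 202 CPM in IgG libraries and HNRNPC, which binds uridine tracts, had 278, 296 and 253 CPM in antagonist libraries, against 363, 343 and 338 CPM in IgG libraries. The groups were apart in all of these, and the log2 fold changes were -0.43 ± 0.06 (SE, adjusted p = 0.000515), -0.35 ± 0.05 (SE, adjusted p = 0.000679) and -0.33 ± 0.07 (SE, adjusted p = 0.00244).

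HNRNPA1, an antagonist of SR proteins at exons, had 154, 179.7 and 165 CPM in antagonist libraries, against 218, 203 and 200.0 CPM in IgG libraries and changed by -0.31 ± 0.07 (SE, adjusted p = 0.00363). Its annotated copy HNRNPA1L2 changed by -0.27 ± 0.07 (SE, adjusted p = 0.00854), and reads may be shared between them. The call for HNRNPA1L2 was lost without IgG library 2, with library totals in place of TMM and with transcript length and GC trends removed (adjusted p = 0.251). HNRNPK, which binds cytidine-rich RNA and DNA, had 389, 416 and 381 CPM in antagonist libraries, against 516, 462 and 467 CPM in IgG libraries, with IgG library 1 the highest, and changed by -0.28 ± 0.06 (SE, adjusted p = 0.00474). HNRNPA2B1, HNRNPR, HNRNPF and HNRNPH3 also fell, by log2 fold changes from -0.29 to -0.20, and HNRNPH3 kept its call in 2 of the 12 alternatives only. HNRNPDL, a relative of HNRNPD, was the one that rose, with 215, 224 and 212 CPM in antagonist libraries, against 199.7, 180.3 and 174 CPM in IgG libraries, and its log2 fold change of 0.23 ± 0.06 (SE, adjusted p = 0.0133) lost the call without IgG library 2 or without antagonist library 1 or 2. HNRNPD itself did not pass at -0.11. HNRNPU, a scaffold of nuclear RNA and chromatin, had 472, 462 and 473 CPM in antagonist libraries, against 515, 499.8 and 469.6 CPM in IgG libraries and did not pass at -0.08. The summed CPM of the hnRNPs was 4765, 4861 and 4707 in antagonist libraries, against 5541, 5272 and 5142 in IgG libraries.

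CLK1, a kinase that phosphorylates SR proteins, had 101, 123 and 101 CPM in antagonist libraries, against 91.2, 81.3 and 76.7 CPM in IgG libraries. The groups did not overlap and antagonist library 2 was the highest, and the log2 fold change was 0.38 ± 0.09 (SE, adjusted p = 0.00536). Its relatives CLK2 and CLK4 did not pass, with 33.3, 32.8 and 28.8 CPM in antagonist libraries, against 29.9, 26.7 and 29.9 CPM in IgG libraries for CLK2 and 21.1, 22.3 and 21.8 CPM in antagonist libraries, against 21.1, 20.9 and 20.4 CPM in IgG libraries for CLK4, at 0.13 and 0.06. DDX39A, an mRNA export helicase, did not pass at -0.10. DDX39B, its better-known relative and a helicase of early spliceosome assembly, had only 4 summed counts in antagonist and 5 in IgG libraries and was not tested. The other genes below the filter were HNRNPCL1, HNRNPCL2, HNRNPCL3, HNRNPCL4, HNRNPH2, HNRNPLL and HNRNPUL2-BSCL2, with at most 12 counts in any library.

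By separation of the libraries alone, 37 of the 95 genes were lower and 20 higher in every antagonist library than in any IgG library, where 27.1% and 21.9% of all tested genes were (49% in either direction). Other genes of the pathway were taken from lists set by name. Of 50 tested spliceosome genes that are not among the 95, 23 fell (46%) and 1 rose (2%), with a median of -0.16. Of all tested genes 20.5% fell and 15.6% rose. ZMAT2 changed by -0.50 ± 0.08 and TXNL4A, a small U5 protein, by -0.40 ± 0.09 (log2, SE), and the spliceosome gene that rose was CHERP, at 0.64 ± 0.15. Of 19 genes of snRNP assembly, which load the Sm ring onto snRNA, 5 fell (GEMIN6, STRAP, SNUPN, CLNS1A and COIL) by edgeR's quasi-likelihood test, a share of 26.3% near the 20.5% of all tested genes, and the one nearest to a rise was GEMIN8 (0.21, adjusted p = 0.0651). The SMN complex member GEMIN6 changed by -0.36 ± 0.12 and SNUPN, which carries assembled snRNPs into the nucleus, by -0.32 ± 0.07.

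Of 55 other splicing regulators, 11 rose and 8 fell. RBM5 changed by 0.56 ± 0.06, NKTR, a cyclophilin with an arginine and serine-rich domain, by 0.49 ± 0.07 and ARGLU1 by 0.47 ± 0.06, while YBX1 changed by -0.36 ± 0.05 and SAP18 by -0.36 ± 0.07. Of 24 genes of the exon junction complex, mRNA export and nonsense-mediated decay, 6 rose and 10 fell. The decay factors SMG5 and SMG1 changed by 0.52 ± 0.05 and 0.41 ± 0.06, and the export factors NXT1 and ALYREF by -0.46 ± 0.06 and -0.40 ± 0.06. The share of all tested genes that rose was 15.6% and that fell was 20.5%.

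The agonist antibody could be examined in 5 splicing factor genes: PRPF8, HNRNPUL1, HNRNPAB, HNRNPK and HNRNPLL. All 5 passed, 4 lower and 1 higher, in a table where 903 of 904 genes (99.9%) passed, 55.6% higher and 44.2% lower, so the count says nothing about these genes. A table in which nearly every gene differs was treated as a selection made on the same libraries, so its adjusted p-values are not independent evidence, and the zero point of the scaling is uncertain because CPM was taken over the listed counts. PRPF8 had 438, 561 and 598 CPM in agonist libraries, against 723, 714 and 716 CPM in IgG libraries. The groups did not overlap, agonist library 1 was the lowest, and the log2 fold change was -0.43 ± 0.09 (SE, adjusted p = 0.00122).

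HNRNPUL1, an hnRNP that also takes part in DNA repair, had 2213, 2301 and 2391 CPM in agonist libraries, against 2808, 2777 and 2863 CPM in IgG libraries, at -0.29 ± 0.05 (SE, adjusted p = 0.000436). HNRNPAB had 845, 803 and 778 CPM in agonist libraries, against 972, 995 and 1023 CPM in IgG libraries, at -0.30 ± 0.06 (SE, adjusted p = 0.000635), and HNRNPK had 2404, 2373 and 2437 CPM in agonist libraries, against 2882, 2879 and 2938 CPM in IgG libraries, at -0.27 ± 0.05 (SE, adjusted p = 0.000445). All agonist libraries were below all IgG libraries in these genes. HNRNPLL, an hnRNP that sets alternative exons of CD45 in lymphocytes, had 178, 195 and 212 CPM in agonist libraries, against 144, 167 and 146 CPM in IgG libraries, and the agonist libraries were the higher ones, at 0.36 ± 0.10 (SE, adjusted p = 0.00475).

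The difference between the antibodies was tested as the interaction of set and treatment over 902 shared genes, of which 510 (56.5%) passed. Each antibody was used in its own set only, so for every gene a difference between antibodies and one between sets cannot be told apart. PRPF8 was lower with the agonist and did not pass with the antagonist, and the antagonist effect minus the agonist effect was 0.51 ± 0.11 (SE, adjusted p = 0.00121). For HNRNPUL1, which had 629.6, 639 and 642 CPM in antagonist libraries, against 584, 635 and 649.7 CPM in IgG libraries in set 1 and a log2 fold change of 0.03 there, the difference was 0.32 ± 0.07 (SE, adjusted p = 0.0013). HNRNPAB and HNRNPK were lower with each antibody than with its IgG, and the differences of -0.13 ± 0.08 (SE, adjusted p = 0.205) and -0.01 ± 0.08 (SE, adjusted p = 0.884) did not pass. HNRNPLL had 1, 1 and 5 counts in antagonist libraries of set 1, against 8, 5 and 6 in IgG libraries. In IgG libraries of set 2 it had 476, 467 and 463 counts, although total counts there were lower. Why the IgG groups differed so much was not tested, so the value cannot be read as a difference between the antibodies alone. The HNRNPLL difference of -1.77 ± 0.57 (SE, adjusted p = 0.0145) rested on the few counts of set 1. It lost the call without antagonist library 1, antagonist library 2 or IgG library 1 of set 1 (adjusted p = 0.0527, 0.0566 and 0.051).

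**Figure D4:**
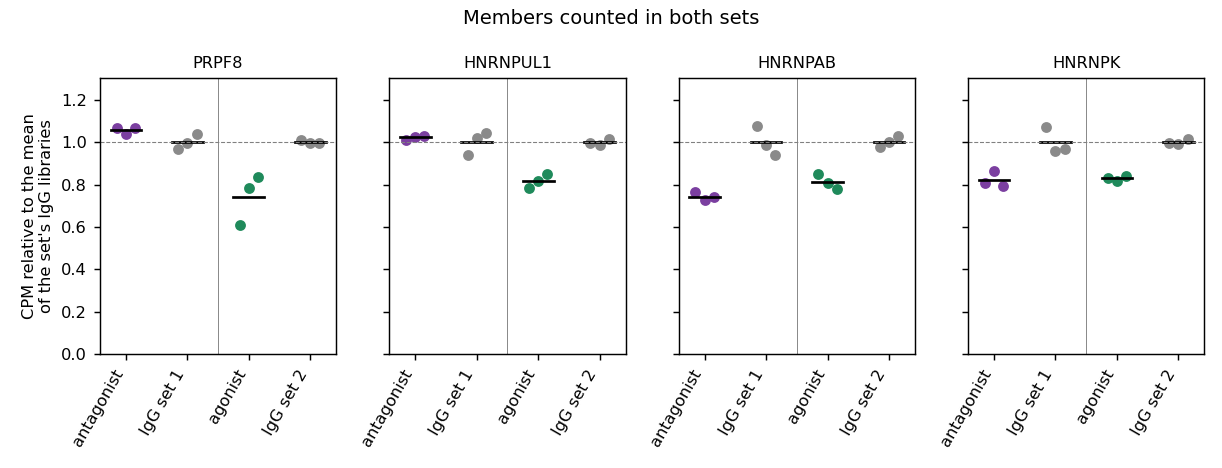
CPM of PRPF8, HNRNPUL1, HNRNPAB and HNRNPK in each library, divided by the mean of the set's IgG libraries, with bars at group means; set 2 values are CPM of the 904 listed genes. PRPF8 and HNRNPUL1 lie slightly above 1 with the antagonist, where neither passed, and below 1 with the agonist. The antagonist values of HNRNPUL1 lie within the range of its IgG libraries. HNRNPAB and HNRNPK lie below 1 with both antibodies.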

How the data were processed

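The authors deposited whole-number read counts per gene, 1 table per set, without normalization. Per the submitters' processing notes, HISAT2, Cufflinks and hg38 were used; the versions, counting program, annotation and strand setting were not given in the sources used here. Trizol and chloroform served for extraction and a NEBNext Ultra DNA kit for libraries, per the labels' protocols. The columns repeat group names, so library numbers follow column order and pair nothing. In set 1, 570 of 28395 rows without a symbol (0.0678% to 0.105% of counts) were left out.

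Counts were filtered with filterByExpr, scaled by TMM and tested with edgeR 4.0.16 (R 4.3.3; robust quasi-likelihood test, Benjamini-Hochberg adjustment over all tested genes, threshold 0.05), within set 1 and within set 2. SE values were derived from the F statistic. CPM values are TMM-scaled. The scripts were tested on simulated data. Alternatives were library totals, DESeq2 1.42.0 size factors and Wald test, no filter, trends with transcript length and GC content removed (splines with 4 degrees of freedom), each library left out and, added after the data were seen, trends with coding length. Coding lengths came from GENCODE annotation and gene positions and promoters from RefSeq (GRCh38.p14). Motifs were searched on both strands.

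The genes, classes and lists were chosen with earlier results of these data known. No protein sequences were used here, so large SR proteins were fixed by name. Beside genes always named by choice, up to 4 called genes per role and direction with a mean of at least 5 CPM, and all genes in the agonist table, are named; further genes were named after their values were seen.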

Additional observations from a re-analysis of the deposited data

Results flagged for a closer look

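The antagonist and agonist effects on 3 of 5 splicing factor genes differed by the interaction test of edgeR. Of all 902 shared genes 510 (56.5%) passed that test, so the count says nothing particular about splicing factor genes. For PRPF8 the log2 fold change with the antagonist minus that with the agonist was 0.51, for HNRNPUL1 it was 0.32 and for HNRNPLL it was -1.77. The HNRNPLL value rested on at most 8 counts in any library of set 1 and lost the call without some single libraries. The direction of each rests on the selected gene list of set 2, whose zero point is uncertain. Antibody and set cannot be told apart in any of these values.

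HNRNPK itself was lower with the antagonist and with the agonist than with IgG (log2 fold changes -0.28 and -0.27). PRPF8 and HNRNPUL1 did not pass with the antagonist (0.08 and 0.03), so a higher ratio to HNRNPK need not mean that they rose. Within a library, the ratio of PRPF8 to HNRNPK counts does not depend on scaling. It was 1.37, 1.25 and 1.40 in antagonist libraries, against 0.934, 1.08 and 1.11 in IgG libraries of set 1, and 0.182, 0.236 and 0.245 in agonist libraries, against 0.251, 0.248 and 0.244 in IgG libraries of set 2. Agonist library 1, which stood apart, was the lowest, and agonist library 3 overlapped the IgG libraries. The IgG groups of the sets themselves differed widely in this ratio, and why was not tested. The ratio of HNRNPUL1 to HNRNPK was 1.62, 1.54 and 1.68 in antagonist libraries, against 1.13, 1.38 and 1.39 in IgG libraries of set 1, and 0.921, 0.970 and 0.981 in agonist libraries, against 0.975, 0.965 and 0.974 in IgG libraries of set 2, where the groups overlapped.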

How the results depend on the processing

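The count of splicing factor genes that changed with the antagonist was 40 to 60 across the 12 alternatives (50 as reported), and that of lower genes 27 to 40. Higher genes numbered 22 with trends of coding length and GC content removed (14 as reported) and 10 to 17 with a library left out. The median of small snRNP genes (-0.35) became -0.22 with transcript length and GC trends removed and -0.13 with coding length and GC trends removed, and was -0.39 to -0.24 with a library left out, the weakest without IgG library 1. That of large SR genes (0.25) became 0.33 with library totals, 0.39 and 0.35 after the same removals and 0.067 over all 20 SR and SR-related genes, and was 0.23 to 0.31 with a library left out. Library totals moved the median of all genes to 0.07 and the share of higher calls to 65.4% from 43.1%. Then 11.6% of all tested genes were lower and 21.9% higher, and 11 small snRNP genes were lower and 5 large SR genes higher, SON included.

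Signs turned for HNRNPU (0.0024) and SF3B1 (0.056) with library totals and for SF3B1 without IgG library 1 (0.038; range with a library left out -0.067 to 0.038). With transcript length and GC trends removed they turned for HNRNPUL1 (-0.11), PRPF8 (-0.14), SON (-0.10) and U2AF2 (-0.021), and with coding length and GC trends removed for HNRNPUL1 (-0.13), LSM5 (0.016), PRPF8 (-0.22), SNRPE (0.025), SON (-0.16) and U2AF2 (-0.082); of these, HNRNPUL1, PRPF8 and SON passed 0.05 in both. SNRPD1, SNRPG, LSM1, LSM3, LSM10 and SRSF3 lost the call with coding length and GC trends removed, at -0.13, -0.17, -0.13, -0.09, -0.13 and -0.03. Library totals took the call from HNRNPA1L2, HNRNPH3, LSM1, LSM5, LSM10, SF3A3, SF3B3, SNRPE and U2AF1L5. Removal of transcript length and GC trends took it from HNRNPA1L2, HNRNPH3, LSM1, LSM5, SNRPE and SF3A1. The difference between the antibodies for HNRNPK (-0.01) became 0.082 with library totals, 0.10 with DESeq2 size factors and -0.053 to 0.066 with a library left out, positive without IgG library 1 or antagonist library 3 of set 1, and did not pass in any of these. All 5 genes of the agonist table were called in all 12 settings of that comparison. No paired analysis was possible because the columns carry no replicate numbers. HNRNPLL and DDX39B had too few counts in set 1 to pass the filter.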

Other observations

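Among splicing factor genes named only briefly or not at all above, HNRNPF, a guanine-tract binder, had 215, 217 and 216 CPM in antagonist libraries, against 259, 251 and 253 CPM in IgG libraries, with all antagonist libraries within a narrow band below the IgG libraries and a log2 fold change of -0.24 ± 0.05 (SE, adjusted p = 0.00495). HNRNPA2B1 had 596, 615 and 602 CPM in antagonist libraries, against 787, 723 and 693 CPM in IgG libraries, and HNRNPR had 72.7, 73.2 and 72.0 CPM in antagonist libraries, against 94.8, 80.5 and 90.3 CPM in IgG libraries, both without overlap, at -0.28 ± 0.06 (SE, adjusted p = 0.00391) and -0.29 ± 0.07 (SE, adjusted p = 0.00649). HNRNPL, which binds CA repeats, had 162, 166 and 159 CPM in antagonist libraries, against 165, 165 and 155 CPM in IgG libraries, at 0.00, and HNRNPH1 had 167, 177 and 159.9 CPM in antagonist libraries, against 178, 162 and 152 CPM in IgG libraries, at 0.03, with overlap in both. HNRNPA0 had 306, 289.9 and 301 CPM in antagonist libraries, against 309, 316 and 318 CPM in IgG libraries, apart by library but not past the test (adjusted p = 0.329 by edgeR's quasi-likelihood test).

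Of the PRPF genes, PRPF6, a U5 protein, had 184, 188 and 190.4 CPM in antagonist libraries, against 179, 205 and 213 CPM in IgG libraries, and PRPF19, the ubiquitin ligase that names its complex, had 115, 116 and 109.8 CPM in antagonist libraries, against 114, 122 and 133 CPM in IgG libraries. Both overlapped, at -0.09 and -0.11. PRPF31, a U4/U6 protein whose loss causes retinal degeneration, had 14.1, 15.9 and 14.3 CPM in antagonist libraries, against 12.1, 14.9 and 15.7 CPM in IgG libraries, at 0.05. PRPF3, PRPF18, PRPF38A, PRPF38B and PRPF39 lay between -0.12 and 0.17 on the log2 scale without passing. Without IgG library 1, PRPF39 passed as higher (0.25, adjusted p = 0.0163) and PRPF6 as lower (-0.13, adjusted p = 0.0421). LSM12, an RNA-binding protein outside the Sm and U6 rings, had 16.7, 21.3 and 16.6 CPM in antagonist libraries, against 22.9, 21.1 and 21.4 CPM in IgG libraries and -0.26, and U2AF1L4 had 26.5, 26.0 and 25.6 CPM in antagonist libraries, against 25.5, 21.6 and 24.1 CPM in IgG libraries and 0.13, neither past the test, although LSM12 passed as lower without antagonist library 2 (-0.39, adjusted p = 0.0137).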
